A study of Mus musculus with 6 samples.

Results

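The 49 genes described here encode the machinery of DNA replication and S phase, the part of the cell cycle in which the genome is copied. They were taken by name from a list and matched to the count table by gene identifier. All 49 were found among its 34866 rows, and all 49 were among the 15216 genes with enough counts to be tested. The list was drawn up by function, with earlier results of these data known.

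The RNA came from forebrains of E14.5 mouse embryos (embryonic day). The Mut group held 3 libraries from embryos with 1 floxed and 1 null allele of Sap130 (f/-) that carried Emx1-cre. The Cont group held 3 libraries from embryos with 1 floxed and 1 wild-type allele (f/+), which carried Emx1-cre too, so Cre was present in every library. Sap130 encodes a subunit of a Sin3 histone deacetylase complex, and Emx1-cre acts in the lineage of the dorsal telencephalon, so cells of other lineages in a Mut forebrain still hold the floxed allele intact. Sample titles begin with SPF-539 (replicate 1 of each group) or SPF-552 (replicates 2 and 3 of each group), and the labels do not say what these numbers stand for. The labels name littermate controls without tying embryos to litters, so p-values measure the spread between these libraries.

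Before a cell divides, origins of replication are licensed by loading the Mcm2-7 helicase ring, which is activated at the start of S phase by Cdc45 and the GINS complex. Polymerases then copy the opened strands while held by Pcna, a ring-shaped sliding clamp that is placed on DNA by clamp loaders. The main loader is RFC (Rfc1 to Rfc5). In a second loader Chtf18 takes the place of Rfc1 and is joined by Chtf8 and Dscc1, and this form is known for its link to sister chromatid cohesion. In the embryonic forebrain these genes are active in dividing progenitors, chiefly radial glia, and are switched off in neurons. In a bulk sample, fewer replicating cells and less RNA per cell cannot be told apart.

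Libraries held between 20775583 and 25999874 estimated counts. Between replicates the biological coefficient of variation came to 12.25%, and a log2 fold change had a median standard error of 0.125. Levels are given as CPM, counts scaled to a common library size with TMM factors, which lay between 0.983 and 1.014. Sap130 itself was higher in the libraries labelled Mut, at 129 ± 7.85 CPM against 84.0 ± 1.10 CPM in Cont (SD, n = 3 each; adjusted p = 0.0116, edgeR quasi-likelihood test), so its level shows no loss of the gene, and every direction given here is that of the libraries as labelled. The counts cover the whole gene, and which exons are floxed is not stated in the labels. The 59 marker genes of 12 cell types had counts in all 6 libraries, among them Emx1 of the dorsal telencephalon. SPF-539 and SPF-552 separated on the first principal component, which held 29.5% of the variance.

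The first question was whether replication genes differ in level between Mut and Cont forebrain. Chtf18, the loader subunit named above, stood apart from the other 48 genes, with 1.60-fold more RNA in Mut than in Cont. The log2 fold changes of the other 48 lay between -0.18 (Ccne2) and 0.43 (Ccne1), and 43 of the 49 genes lay within 0.2 of 0. None of the 49 passed a false discovery rate (FDR) of 0.05 by edgeR's quasi-likelihood test, where 0.138% of all tested genes passed. At an unadjusted p under 0.05, 5 genes (Chtf18, Blm, Ccne1, E2f8 and Chaf1b) were higher in Mut, against 5.22% of all tested genes, and 0 were lower, against 4.38%. edgeR's likelihood-ratio test passed 1 of the 49, Chtf18, at an FDR of 0.05 (0.986% of all tested genes). DESeq2 also passed Chtf18 alone (1.27% of all tested genes) and gave the same counts of 5 and 0 at an unadjusted p under 0.05 (5.06% and 3.82% of all tested genes). The same 5 genes had all 3 Mut libraries above all 3 Cont libraries, which held for 8.17% of all tested genes, and no gene had all 3 Mut libraries below, which held for 8.49%. The log2 fold change was above 0 for 33 of the 49 genes, against 49.9% of all tested genes, and its median was 0.09, against -0.0003 over all tested genes.

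**Figure D1:**
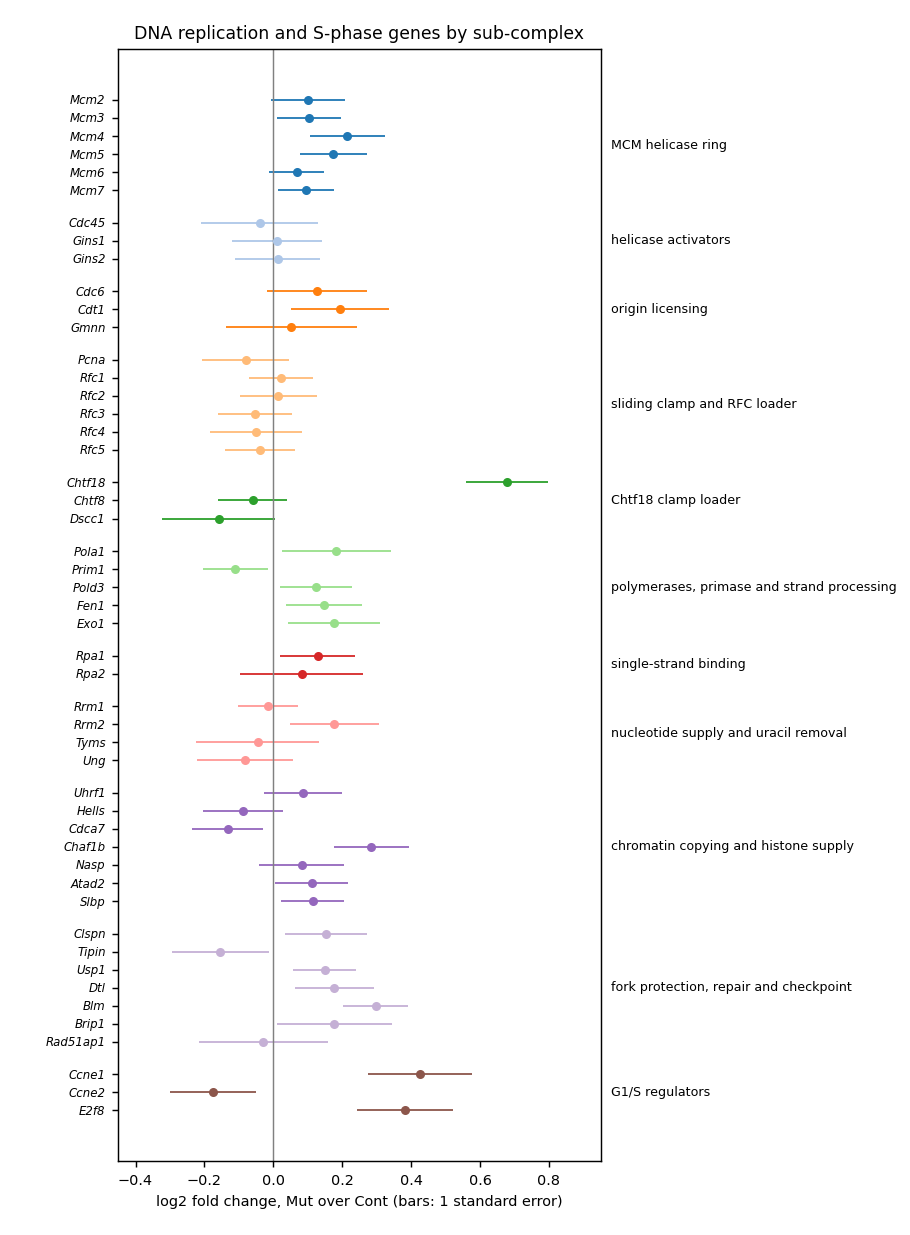
Log2 fold change, Mut over Cont, of the 49 genes grouped by sub-complex (points, with bars of 1 standard error from edgeR, n = 3 libraries each). Chtf18 lies at 0.68, and the other 48 genes lie between -0.18 and 0.43.

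The Chtf18 loader was examined first because Chtf18 was singled out in the rule for the list, chosen with earlier results of these data known. Chtf18 (ENSMUSG00000019214; GRCm38 chromosome 17, 25718926 to 25727419, minus strand), which encodes the large subunit of this loader, stood at 24.3, 28.6 and 30.9 CPM in Mut replicates 1 to 3 and at 16.5, 17.9 and 18.0 CPM in Cont replicates 1 to 3. Every Mut library lay above every Cont library. The gap between the groups was wider than the range within Cont and slightly narrower than the range within Mut. The means were 27.9 ± 3.35 CPM in Mut and 17.4 ± 0.819 CPM in Cont (SD, n = 3 each). This is a log2 fold change of 0.68 (SE 0.118, approximate 95% interval 0.44 to 0.91). Its adjusted p over all genes was 0.0565 in edgeR's quasi-likelihood test, just short of the threshold, and Chtf18 ranked 26 by p among all genes tested. A two-sided exact permutation test over the libraries gave p = 0.1, its lower limit for 3 against 3.

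The difference in Chtf18 was present within each title number, with a log2 ratio of 0.56 between the SPF-539 libraries (1 against 1) and 0.73 within SPF-552 (2 against 2). With the title number as a block the adjusted p was 0.0123 by the same edgeR test, and Chtf18 was then the 1 called gene among the 49, where 0.762% of all tested genes were called. At an FDR of 0.1 without the block it was also the 1 gene that passed (0.368% of all tested genes). Over 18 other settings, including each fit that left out 1 library, the log2 fold change lay between 0.60 and 0.77, and 8 settings gave an adjusted p under 0.05, with a range of 0.000211 to 0.327. The authors' deposited table of the same comparison gives Chtf18 a log2 fold change of 0.69, with an FDR of 1.27e-05 by a likelihood-ratio test. That table lists 369 genes with an FDR of up to 0.0994, and Chtf18 is the 1 gene of the 49 among them.

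Chtf8 (ENSMUSG00000046691), the small partner subunit, had 140, 174 and 179 CPM in Mut and 158, 174 and 181 CPM in Cont. The groups overlapped almost fully, with a log2 fold change of -0.06 (95% interval -0.26 to 0.14, adjusted p = 0.892 in edgeR's quasi-likelihood test). Dscc1 (ENSMUSG00000022422), which encodes the other partner subunit, had 5.37, 5.11 and 5.66 CPM in Mut and 5.61, 6.06 and 6.35 CPM in Cont. Its log2 fold change was -0.16 (95% interval -0.49 to 0.17, adjusted p = 0.805 by the same test), with 2 of the 3 Mut libraries below every Cont library. The 95% intervals of both partners end below 0.44, the lower end of the interval for Chtf18. The ratio of Chtf18 to Chtf8 CPM was 0.174, 0.165 and 0.172 in Mut libraries and 0.105, 0.103 and 0.0992 in Cont libraries, so it varied less within a group than the level of Chtf18 itself. Per kilobase of exon, Chtf18 stood at 5.27 CPM per kb in Mut and 3.29 CPM per kb in Cont, above Dscc1 (1.21 in Mut and 1.36 in Cont) and below Chtf8 (54.0 in Mut and 56.3 in Cont) in both groups.

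Because the library kit records no strand, reads from genes that overlap on opposite strands cannot be separated. Chtf18 shares 399 exon bases, 7.53% of its exons, with Gng13 on the other strand. Gng13 was listed at 2, 6.31 and 0 estimated counts in Mut and at 3.11, 0 and 2.25 in Cont, too few to be tested. Chtf8 shares 11.59% of its exons with Has3 (log2 fold change 0.20, adjusted p = 0.679 in edgeR's quasi-likelihood test), and 91.77% with a gene annotated under the same name on the same strand, which has no row in the count table. Dscc1 shares 4.49% of its exons with an antisense transcript that has no row either. Within 100000 bases of Chtf18, 9 other genes were tested. None was called or reached an unadjusted p under 0.05, and their log2 fold changes lay between -0.15 (Lmf1) and 0.19 (Fam173a) with a median of -0.004.

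Pcna, the clamp that both loaders handle, had 121, 163 and 181 CPM in Mut and 155, 161 and 176 CPM in Cont. Mut held both the lowest and the highest library, and the log2 fold change was -0.08 (95% interval -0.33 to 0.17, adjusted p = 0.878 in edgeR's quasi-likelihood test). Per kilobase of exon Pcna was the most abundant of the 49 genes, at 64.6 CPM per kb in Mut and 68.3 CPM per kb in Cont. Its pseudogenes had at most 3.45 estimated counts in any library. The 5 subunits of the RFC loader had log2 fold changes between -0.05 (Rfc3) and 0.02 (Rfc1), with standard errors from 0.0938 to 0.134, and every one of them overlapped between groups. Rfc1, the subunit that Chtf18 replaces, had 58.1, 64.9 and 66.6 CPM in Mut and 57.2, 61.0 and 68.5 CPM in Cont, with the 2 lowest libraries being replicate 1 of each group. The ratio of Chtf18 to Rfc1 CPM was 0.418 to 0.464 in Mut and 0.262 to 0.293 in Cont. Rfc2, Rfc4 and Rfc5 share 10.69% to 15.10% of their exons with a protein-coding gene on the other strand; one of these, Eif4a2, which overlaps Rfc4, had all 3 Mut libraries below all 3 Cont libraries (log2 fold change -0.31, adjusted p = 0.204 by the same edgeR test).

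**Figure D2:**
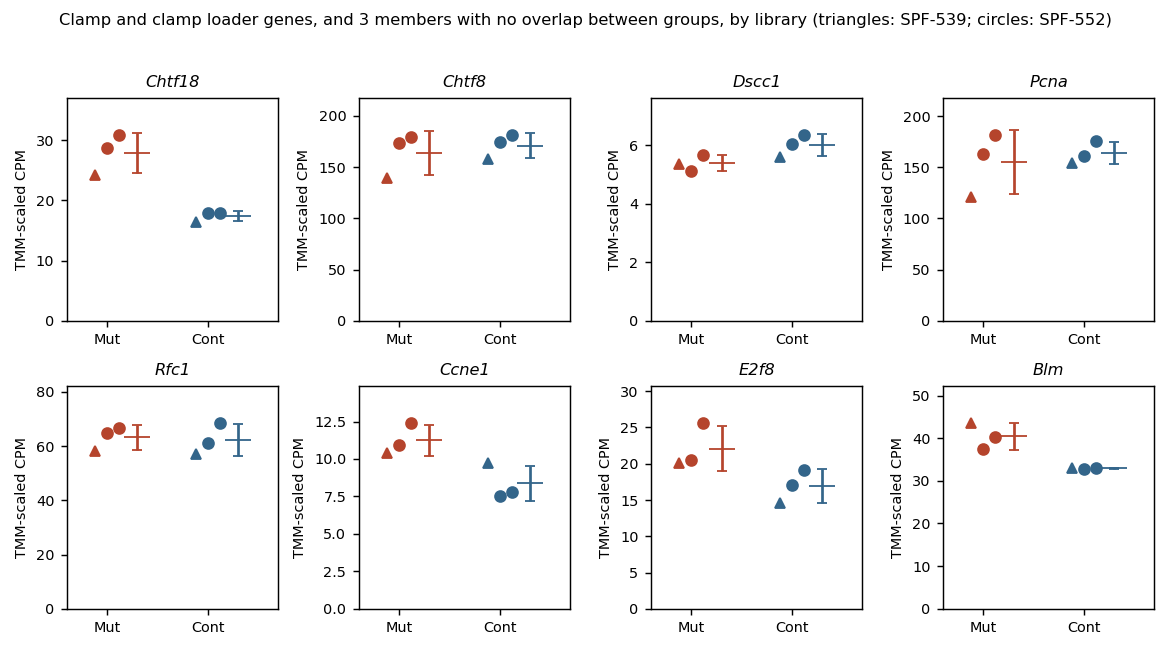
TMM-scaled CPM in each library for the clamp and clamp loader genes and for Ccne1, E2f8 and Blm (triangles are SPF-539 and circles SPF-552; horizontal bars with whiskers are means ± SD, n = 3). Chtf18 lies at 24.3 to 30.9 CPM in Mut and 16.5 to 18.0 CPM in Cont, while the Mut and Cont values of Chtf8, Pcna and Rfc1 overlap.

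The sequence upstream of the start site is shown for Chtf18 and, for comparison, for 2 helicase ring genes that carry the letters of E2F sites, since E2F factors are the best known activators of S-phase genes. The 250 bases before the RefSeq start (GRCm38.p6) were searched on both strands for TTTCCCGC, TTTCGCGC, TTTGCCGC and TTTGGCGC, spelled-out forms of the E2F motif, and for CCAAT. In the sequence of Chtf18 (chr17:25727416-25727665, minus strand) capitals mark the 4 CCAAT matches, and no E2F match was found. In those of Mcm5 (chr8:75109259-75109508, plus strand) and Mcm6 (chr1:128359706-128359955, minus strand) capitals mark the E2F matches, 2 in Mcm5 and 3 in Mcm6. Matches on opposite strands that overlap each other form 1 run of capitals.
Chtf18: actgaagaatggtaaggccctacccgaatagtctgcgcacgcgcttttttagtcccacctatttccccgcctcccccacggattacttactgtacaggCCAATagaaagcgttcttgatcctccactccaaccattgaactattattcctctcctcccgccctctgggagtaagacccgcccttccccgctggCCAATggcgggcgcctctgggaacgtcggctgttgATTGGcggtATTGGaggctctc
Mcm5: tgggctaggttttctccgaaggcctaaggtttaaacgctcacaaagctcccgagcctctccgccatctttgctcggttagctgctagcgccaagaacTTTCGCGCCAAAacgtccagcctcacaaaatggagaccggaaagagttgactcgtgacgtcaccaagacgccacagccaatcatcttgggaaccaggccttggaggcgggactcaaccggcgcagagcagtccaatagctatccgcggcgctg
Mcm6: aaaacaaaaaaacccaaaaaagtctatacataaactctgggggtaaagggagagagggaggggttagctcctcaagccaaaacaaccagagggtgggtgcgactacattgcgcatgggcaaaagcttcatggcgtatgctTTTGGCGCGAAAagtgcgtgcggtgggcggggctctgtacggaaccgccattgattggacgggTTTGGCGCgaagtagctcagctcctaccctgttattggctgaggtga
The E2F letters and CCAAT overlap in none of these 3 sequences, and Mcm5 and Mcm6 each hold 2 CCAAT matches as well.

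An entry was available for 38 of the 49 genes. Of these, 9 (23.7%) held at least 1 E2F match in the same window, against 1.91% of 27025 genes. These were Cdc6, Cdca7, Dtl, Hells, Mcm5, Mcm6, Mcm7, Pola1 and Rfc3, whose log2 fold changes lay between -0.13 (Cdca7) and 0.18 (Pola1). CCAAT was found in 25 of the 38 (65.8%), against 34.5% of the 27025. Of the 5 genes without overlap between groups, none held an E2F match, Blm held 2 CCAAT matches, E2f8 held 1 and Ccne1 and Chaf1b held 0. The 11 genes without an entry were Mcm4, Gins1, Gins2, Gmnn, Rfc2, Dscc1, Exo1, Atad2, Tipin, Usp1 and Ccne2. A match describes letters only, and the absence of one says nothing of whether a factor binds.

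The helicase ring, whose 6 Mcm proteins unwind the DNA, was next. All 6 genes had a log2 fold change above 0, between 0.07 (Mcm6) and 0.22 (Mcm4), with a median of 0.10, and none passed the test. Mcm4, a catalytic subunit of the ring, had 63.8, 80.4 and 85.9 CPM in Mut and 60.9, 67.8 and 69.4 CPM in Cont. Mut replicates 2 and 3 lay above every Cont library and replicate 1 lay among them (log2 fold change 0.22, SE 0.110, adjusted p = 0.577 in edgeR's quasi-likelihood test). Mcm7, the most abundant ring gene, had 170, 192 and 196 CPM in Mut and 172, 169 and 183 CPM in Cont (log2 fold change 0.10, adjusted p = 0.762 by the same test). It again had replicates 2 and 3 of Mut on top, while Mut replicate 1 fell within the Cont range. Mcm7 shares 7.25% of its exons with Ap4m1 (log2 fold change 0.07) and 1.45% with Cops6 (-0.03). Summed over the ring, the level was 639, 717 and 772.5 CPM in Mut and 615, 650.0 and 696 CPM in Cont.

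Among the helicase activators the median log2 fold change was 0.01. Cdc45, which joins the ring to form the moving helicase, had 11.8, 18.4 and 19.3 CPM in Mut and 18.1, 16.8 and 15.9 CPM in Cont. Its 3 Mut libraries spanned a wider range than the Cont libraries, with replicate 1 the lowest of all 6 and replicates 2 and 3 the highest. The pooled log2 fold change was therefore -0.04 (SE 0.170, adjusted p = 0.962 in edgeR's quasi-likelihood test). Gins2, a GINS subunit, had 25.8, 32.3 and 34.6 CPM in Mut and 31.9, 27.6 and 32.2 CPM in Cont (log2 fold change 0.01). It shares 67.32% of its exons with Gse1 on the other strand (log2 fold change -0.08), so its level is uncertain. Gins1 had 0.01, and the sign of Gins1 and of Gins2 turned with upper-quartile scaling.

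Origin licensing is carried out by Cdc6 and Cdt1, which load the ring, and is held in check by geminin, encoded by Gmnn. Their log2 fold changes were 0.13 (Cdc6), 0.19 (Cdt1) and 0.05 (Gmnn), and none passed. Cdt1, which had both the smallest p and the highest mean CPM of the 3, had 17.6, 21.4 and 22.5 CPM in Mut and 21.1, 15.8 and 16.8 CPM in Cont. The SPF-539 pair thus differed in the opposite direction from the SPF-552 libraries, with log2 ratios of -0.26 and 0.43.

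The polymerase and strand-processing genes had a median log2 fold change of 0.15, with 4 of 5 above 0 and none past the test. Fen1, the nuclease that trims the flaps between lagging-strand fragments, had 40.3, 47.2 and 51.3 CPM in Mut and 44.0, 37.3 and 44.0 CPM in Cont. Mut replicates 2 and 3 lay above Cont and replicate 1 lay within it (log2 fold change 0.15, SE 0.111, adjusted p = 0.730 in edgeR's quasi-likelihood test). Fen1 shares 78.82% of its exons with an antisense transcript that has no row in the table. Pold3, a subunit of polymerase delta, had 44.8, 53.0 and 57.1 CPM in Mut and 45.0, 51.3 and 45.8 CPM in Cont (log2 fold change 0.12, adjusted p = 0.761 by the same test). Mut replicate 1 was its lowest library, just below Cont replicate 1. Pola1, the catalytic subunit of polymerase alpha, had a log2 fold change of 0.18, Exo1, an exonuclease, 0.18 and Prim1, the catalytic primase subunit, -0.11.

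Single-strand binding proteins coat the exposed template. Rpa1, the large subunit, had 84.9, 105 and 111 CPM in Mut and 81.8, 99.4 and 94.5 CPM in Cont (log2 fold change 0.13, SE 0.110, adjusted p = 0.762 in edgeR's quasi-likelihood test). Replicate 1 was the lowest library of its group in both. Rpa2, the middle subunit, had 23.8, 40.8 and 41.4 CPM in Mut and 31.1, 33.0 and 35.8 CPM in Cont. Its log2 fold change was 0.08, and the 3 Cont libraries lay between Mut replicate 1 and the other two Mut libraries.

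Among the nucleotide supply genes the median log2 fold change was -0.03. Rrm2, the subunit of ribonucleotide reductase whose level follows S phase, had 101, 137 and 151 CPM in Mut and 105, 115 and 123 CPM in Cont. Mut replicates 2 and 3 were above every Cont library and replicate 1 was below (log2 fold change 0.18, SE 0.129, adjusted p = 0.718 in edgeR's quasi-likelihood test). Rrm1, the large subunit of the same enzyme, had 163, 168 and 191 CPM in Mut and 165, 176 and 187 CPM in Cont, a log2 fold change of -0.02 (SE 0.0869). Tyms, which makes thymidylate, and Ung, which removes uracil from DNA, had log2 fold changes of -0.05 and -0.08.

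The genes that copy chromatin and supply histones had log2 fold changes between -0.13 (Cdca7) and 0.28 (Chaf1b), 5 of 7 above 0. Chaf1b (ENSMUSG00000022945), a subunit of the CAF-1 complex that places histones on new DNA, had 32.7, 31.3 and 37.1 CPM in Mut and 26.3, 26.2 and 30.4 CPM in Cont. All 3 Mut libraries lay above all 3 Cont libraries, by a narrow margin between Mut replicate 2 and Cont replicate 3, and the test did not pass (SE 0.109, unadjusted p = 0.0229, adjusted p = 0.416, edgeR quasi-likelihood test). Nasp, a chaperone of free histones and the gene with the highest CPM of the 49, had 191, 230 and 259 CPM in Mut and 180, 225 and 237 CPM in Cont, a log2 fold change of 0.08 (adjusted p = 0.871 by the same test). Slbp, which binds the stem-loop of histone mRNAs, had a log2 fold change of 0.11, as did Atad2, a chromatin ATPase, and Uhrf1, which passes DNA methylation on to the new strand, had 0.09. Hells, a chromatin remodeller, and its partner Cdca7 stood at -0.09 and -0.13.

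The fork protection, repair and checkpoint genes had a median log2 fold change of 0.15, with 5 of 7 above 0. Blm (ENSMUSG00000030528), a helicase that resolves recombination intermediates, had 43.6, 37.4 and 40.4 CPM in Mut and 33.0, 32.9 and 32.9 CPM in Cont. Every Mut library lay above the closely grouped Cont libraries, and Mut replicate 1 was the highest of the 6 (log2 fold change 0.30, SE 0.0935, unadjusted p = 0.00824, adjusted p = 0.309, edgeR quasi-likelihood test). Usp1, a deubiquitinase of Pcna and the Fanconi proteins, had 102, 116 and 121 CPM in Mut and 91.8, 105 and 109 CPM in Cont (log2 fold change 0.15, adjusted p = 0.664 by the same test). Clspn (claspin) and Dtl, which carries Cdt1 to its destruction, had 0.15 and 0.18, and Brip1, a helicase of repair, had 0.18. Tipin, a fork protection protein, had -0.15, and Rad51ap1, a repair factor, had -0.03.

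The G1/S regulators held the largest differences after Chtf18, and did not move as a group. Ccne1 (ENSMUSG00000002068), cyclin E1, which drives entry into S phase with Cdk2, had 10.4, 10.9 and 12.4 CPM in Mut and 9.74, 7.55 and 7.82 CPM in Cont. All Mut libraries lay above all Cont libraries, with the smallest gap in SPF-539 (log2 fold change 0.43, SE 0.151, unadjusted p = 0.0159, adjusted p = 0.379, edgeR quasi-likelihood test). Ccne2, cyclin E2, had a log2 fold change of -0.18 (95% interval -0.42 to 0.07), and the ratio of Ccne1 to Ccne2 CPM was 0.693 to 0.737 in Mut and 0.404 to 0.629 in Cont. Ccne2 shares 17.42% of its exons with Ints8 (log2 fold change 0.15). E2f8 (ENSMUSG00000046179), a repressor of the E2F family, had 20.1, 20.5 and 25.6 CPM in Mut and 14.52, 17.1 and 19.2 CPM in Cont. The groups did not overlap, with Mut replicate 1 about 1 CPM above Cont replicate 3 (log2 fold change 0.38, SE 0.140, unadjusted p = 0.0185, adjusted p = 0.392, edgeR quasi-likelihood test).

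Levels also differed between libraries of the same group. Mut replicate 1 had the lowest level of the 6 libraries for 25 of the 49 genes, against 26.8% of all tested genes, and Mut replicate 3 had the highest for 35, against 15.6%. The median over the 49 genes of the log2 level minus the Cont mean was -0.11, 0.13 and 0.24 in Mut replicates 1 to 3 and -0.08, -0.0001 and 0.09 in Cont replicates 1 to 3. Leaving out Mut replicate 1 brought the median log2 fold change to 0.18 and leaving out Mut replicate 3 brought it to -0.001. It was 0.03 without Cont replicate 1 and 0.14 without Cont replicate 3, and it lay at 0.07 and 0.08 without Mut or Cont replicate 2.

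**Figure D3:**
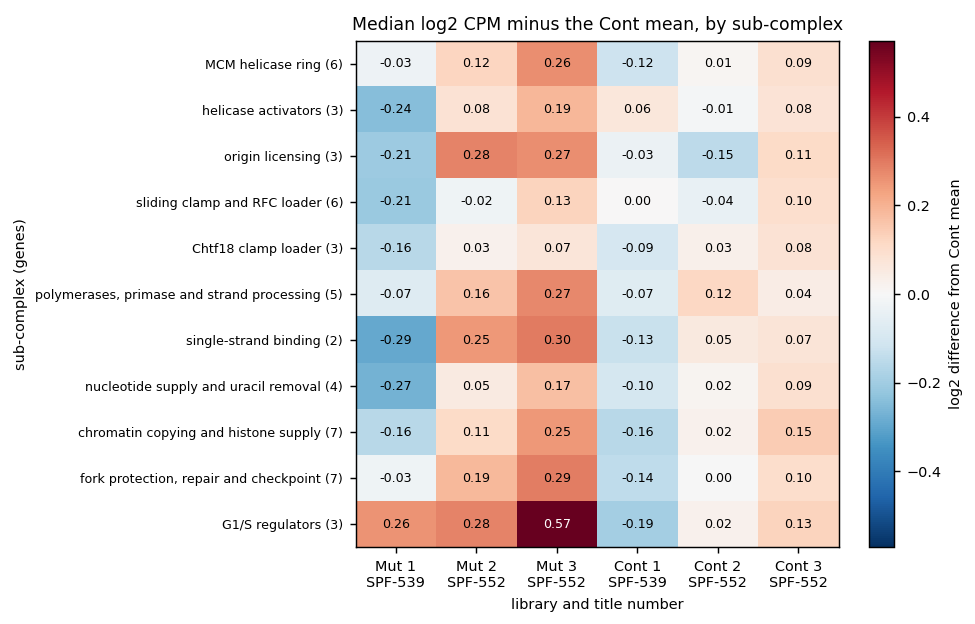
Median over each sub-complex of log2 CPM minus the mean of the Cont libraries, for each library (colours and printed values on the log2 scale; the number of genes is in brackets). Mut replicate 1 lies below 0 for every sub-complex but the G1/S regulators (0.26), and Mut replicate 3 lies above 0 for all 11.

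Within SPF-552 alone, 42 of the 49 genes had a log2 ratio of Mut to Cont above 0, against 50.8% of all tested genes, and the median was 0.13. Between the SPF-539 libraries 29 of 49 had a ratio below 0, against 51.4%, and the median was -0.04. In the SPF-552 libraries taken alone (2 against 2), 4 genes passed an FDR of 0.05 by edgeR's quasi-likelihood test, all higher in Mut, where 3.7% of all tested genes passed. These were Chtf18 (log2 fold change 0.73, adjusted p = 0.000791), Ccne1 (0.60, 0.0431), Mcm4 (0.28, 0.0301) and Rrm2 (0.27, 0.0284), with the adjusted p second in each bracket. At an unadjusted p under 0.05, 17 genes were higher in Mut there (8.6% of all tested genes) and 0 were lower (8.07%). Without Mut replicate 1, which leaves 2 Mut libraries, Chtf18, Mcm4 and Rrm2 passed, where 2.14% of all tested genes did, and 20 genes were higher (6.96% of all tested genes) and 0 lower (7.21%) at an unadjusted p under 0.05. With all 6 libraries and the title number as a block, 9 were higher (6.92%) and 0 lower (6.22%) at that p. The difference between title numbers was itself tested, and 6 genes passed (8.69% of all tested genes), all more positive in SPF-552 (3.63% of all tested genes), namely Cdc45, Tipin, Cdt1, Rpa2, Tyms and Pcna. SPF-539 has 1 library in each group, so this test takes its spread from the SPF-552 libraries.

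Transcript length moved with the SPF-539 ratio. Of the 25 genes with an exon length at or under 4601 bases, the median of the 49, 20 had an SPF-539 ratio below 0 with a median of -0.13, and of the 24 longer genes 9 did, with a median of 0.05. Among all tested genes the medians on the same sides of this length were -0.14 and 0.11. Over the 49 genes Pearson's r between log2 exon length and the SPF-539 ratio was 0.54 and that with the SPF-552 ratio was -0.09, a description across genes, which are not independent replicates and share the same libraries. When each library was given an offset for exon length, Chtf18 had a log2 fold change of 0.67 (adjusted p = 0.0354, edgeR quasi-likelihood test), and 0.447% of all tested genes passed. With offset and block together it was 0.67 (adjusted p = 0.00131 by the same test), the 1 gene of the 49 to pass (2.67% of all tested genes), and 10 of the 49 were higher at an unadjusted p under 0.05 (7.85%). With the same offset, 1 of the 6 genes, Tyms, kept an adjusted p under 0.05 (0.0472) in the test between title numbers, where 1.39% of all tested genes passed. The part of RNA quality in these differences was not tested.

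**Figure D4:**
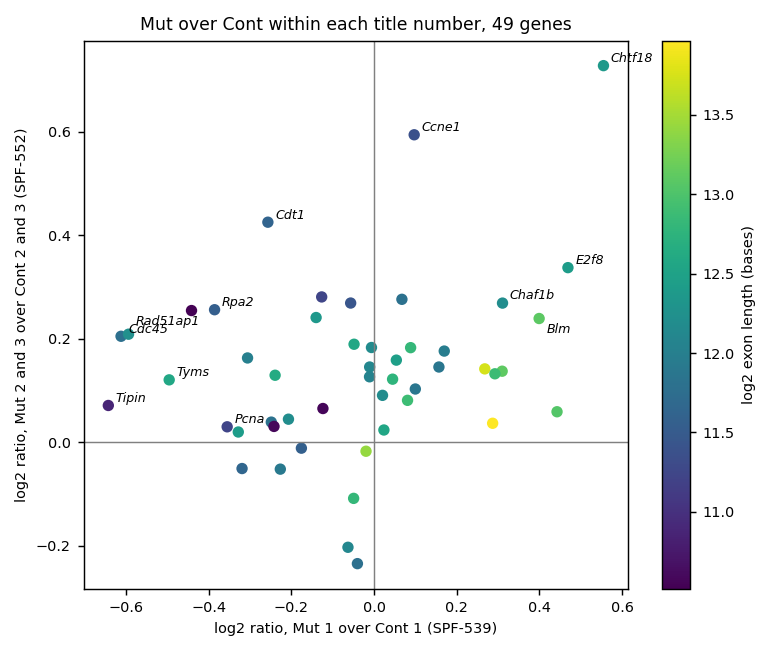
Log2 ratio of Mut to Cont within SPF-552 (y axis, 2 libraries against 2) against that within SPF-539 (x axis, 1 against 1) for the 49 genes, coloured by log2 exon length. Chtf18 lies at 0.56 and 0.73, 42 genes lie above 0 on the y axis, and 29 lie below 0 on the x axis.

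Other genes of the same processes were read from the same fit. None of 42 other replication factors, 30 other regulators of G1/S and of the checkpoint, 14 cohesion genes or 20 genes of G2 and mitosis passed an FDR of 0.05 by edgeR's quasi-likelihood test, and none did by DESeq2. At an unadjusted p under 0.05, 8, 3, 0 and 3 genes of these lists were higher in Mut, against 5.22% of all tested genes, and 0 in each were lower, against 4.38%. Their median log2 fold changes were 0.05, 0.06, 0.04 and 0.11. Ticrr, which helps to load Cdc45, had 34.0, 32.7 and 32.9 CPM in Mut and 24.9, 26.4 and 28.4 CPM in Cont (log2 fold change 0.32, adjusted p = 0.276). Wdhd1, which ties polymerase alpha to the helicase, had a log2 fold change of 0.30 (adjusted p = 0.285). The checkpoint kinase gene Atr had 0.36 (adjusted p = 0.230), and E2f3, an activating E2F, had 0.23 (adjusted p = 0.404). Mki67 and Cenpf, which are expressed in dividing cells up to mitosis, each had 0.40 (adjusted p = 0.310 and 0.351), and replicate 1 of Cont was the lowest library for both. In the cohesion list Cdca5 (sororin) had 0.18 and the cohesin subunit Smc3 0.12, with adjusted p of 0.706 and 0.733 by the same edgeR test.

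Marker genes of several cell types were read from the same fit. In bulk RNA their levels do not separate cell number from RNA per cell. Of 5 marker genes of intermediate progenitors all 5 had a log2 fold change below 0. By edgeR's quasi-likelihood test 4 were lower in Mut at an unadjusted p under 0.05, and 1 (Eomes) passed an FDR of 0.05. The summed level of the 5 was 428 to 443 CPM in Mut and 564.5 to 606 CPM in Cont. Among 5 markers of excitatory neurons 4 were lower in Mut at an unadjusted p under 0.05 by the same test. An FDR of 0.05 was passed by 3, Neurod6 and Neurod2 among them. The summed level of the 5 was 971 to 1186 CPM in Mut and 1384 to 1461 CPM in Cont. Of 4 general neuron markers none passed, with a median log2 fold change of -0.09 and all 4 below 0. Of 8 markers of radial glia, the dividing cells in which replication genes are chiefly active, none passed. Their summed level was 2244, 2242 and 2460 CPM in Mut and 1997, 2143 and 2139 CPM in Cont. Their median log2 fold change was 0.22. Mut replicate 3 was the highest library here as it was for the 49 genes. Mut replicate 1, which had the lowest summed level of the 49 genes, had a radial glia sum above every Cont library. Of that sum, Nes gave 704 CPM and Vim 729 CPM. Marker by marker, Mut replicate 1 was mixed. Its log2 level minus the Cont mean lay between -0.28 (Fabp7) and 0.40 (Nes), with a median of 0.005 over the 8 markers. Of 5 diencephalon markers, all 5 had a log2 fold change above 0 (median 0.41), 4 of them at an unadjusted p under 0.05, and none passed. For 4 of the 5, all 3 Mut libraries lay above all 3 Cont libraries (8.17% of all tested genes). Their summed levels were 387 to 470 CPM in Mut and 311.5 to 344 CPM in Cont. Of 5 markers of the ganglionic eminence, the ventral telencephalon, all 5 had a log2 fold change above 0 (median 0.27), 4 of them at an unadjusted p under 0.05, and none passed. Their summed level was 571, 693 and 737 CPM in Mut and 509, 556.5 and 585 CPM in Cont, and Mut replicate 3 was again the highest library. Whether the makeup of the tissue differed, and what part it had in the levels of replication genes, Chtf18 included, was not tested.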

How the data were processed

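The members and gene lists were chosen with earlier results of these data known. RNA was made into TruSeq RNA v2 libraries, per the labels' protocols. Per the submitters' processing notes, the tools were edgeR 3.4.2, HTSeq 0.5.4p5 and TopHat2 2.0.9 and the build was mm10, or GRCm38; their order is not stated. The deposited table holds estimated counts per gene, unscaled; 22.7% to 24.9% of values are not whole, and no source used here names the tool that made them. A comparison table deposited by the authors gives log2 fold changes, log2 CPM, a likelihood-ratio score, and p-values with FDR.

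Identifiers were matched to GENCODE M21 (99.19% of rows), and estimated counts were rounded. Mut was compared with Cont in edgeR 4.0.16 (R 4.3.3): filterByExpr (minimum count 10, minimum total 15), TMM, robust quasi-likelihood fit, Benjamini-Hochberg adjustment over all 15216 genes, FDR 0.05. Log2 CPM used a prior count of 2. The script was tested on simulated data. Alternatives used DESeq2 1.42.0, limma 3.58.1 (voom), edgeR's likelihood-ratio test, other scalings, filters and thresholds, a block for title number, a lowess offset for exon length, the SPF-552 libraries by themselves, and leaving out each library. Replicates are numbered by accession, which pairs no samples. Replicates of 1 group differed by a chi-square of 4.81 to 29.3 per gene, beyond sampling noise. Per-library values were given for the Chtf18 loader, Pcna, called genes, and the gene with the smallest p and that with the highest CPM in each sub-complex; Rfc1, Rpa2 and Ticrr were added after their values were seen. Exon length is the union of annotated exons. Promoter sequences are from RefSeq (GRCm38.p6), the first listed per gene. Figures used matplotlib 3.10.9. Of the marker genes, some are not reported here by name.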

Additional observations from a re-analysis of the deposited data

Results flagged for a closer look

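For 6 of the 49 genes the log2 difference of Mut over Cont was larger in SPF-552 than in SPF-539 by the edgeR test of the difference between title numbers. Cdc45 differed by 0.82 (adjusted p = 0.0204), Tipin by 0.72 (adjusted p = 0.0152), Cdt1 by 0.69 (adjusted p = 0.0360), Rpa2 by 0.64 (adjusted p = 0.0193), Tyms by 0.62 (adjusted p = 0.0260) and Pcna by 0.39 (adjusted p = 0.0473). In SPF-539 each value rests on 1 library of each group, and 8.69% of all tested genes passed the same test. With an offset for exon length the 6 differences were 0.73, 0.46, 0.56, 0.51, 0.68 and 0.20, in the same order, and Tyms alone kept an adjusted p under 0.05 (0.0472).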

How the results depend on the processing

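Chtf18 kept its direction in all 18 other settings. Its log2 fold change passed the threshold at 0.681 with DESeq2, 0.678 with the likelihood-ratio test and at an FDR of 0.1, 0.674 with no low-count filter and with the title-number block, 0.732 in SPF-552 alone, 0.672 with the exon-length offset and 0.668 with that offset and the block. Leaving out 1 library gave 0.599 to 0.77. Of the 49 genes 1 was called with DESeq2, the likelihood-ratio test, no filter, the block, the offset, both together and at an FDR of 0.1, 4 in SPF-552 alone, and 0 to 3 on leaving out 1 library. Genes higher at an unadjusted p under 0.05 numbered 9 with the block (6.92% of all tested genes), 17 in SPF-552 (8.6%) and 10 with offset and block (7.85%). On leaving out 1 library they numbered 2 to 20, the 20 without Mut replicate 1 (6.96%). The shares of all tested genes in the other fits that left out 1 library are not given here. Over all genes 194 were called with DESeq2, 150 with the likelihood-ratio test, 11 with limma-voom, 130 with no filter, 116 with the block, 564 in SPF-552, 68 with the offset, 407 with offset and block, 56 at an FDR of 0.1, and 3 to 330 on leaving out 1 library, the 330 without Mut replicate 1. Of the other pathway genes 2 were called in SPF-552 (Cdk2 and Cdc20) and 4 with offset and block (Mki67, Cenpf, Cenpe and Lig1), all higher in Mut. The title-number difference was called for 1 gene with the offset, where 1.39% of all tested genes passed. With DESeq2 it was called for 1 gene, and on leaving out 1 library for 2 to 7. The shares of all tested genes in those fits are not given here, so no result is read from these counts.

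Of the 49 genes, 24 stayed above 0 and 5 below 0 in every setting. The other 20, none called in any setting, changed sign at least once. In SPF-552 alone this gave 0.207 for Cdc45, 0.031 for Pcna, 0.041 for Rfc3 and for Rfc4, 0.047 for Rfc5, 0.121 for Tyms, 0.027 for Ung, 0.073 for Tipin and 0.211 for Rad51ap1. Upper-quartile scaling gave -0.002 for Gins1 and -8.3e-05 for Gins2. With limma-voom the values were -0.004 for Gins1, -0.002 for Gins2 and -0.00064 for Gmnn. With the exon-length offset they were -0.003 for Rfc2 and 0.030 for Rfc4, and with offset and block -0.015 and 0.030. On leaving out 1 library the range was -0.004 to 0.199 for Mcm2, -0.168 to 0.156 for Cdc45, -0.117 to 0.106 for Gins1, -0.078 to 0.128 for Gins2, -0.087 to 0.266 for Gmnn, -0.21 to 0.071 for Pcna, -0.035 to 0.096 for Rfc1, -0.075 to 0.135 for Rfc2, -0.131 to 0.019 for Rfc3, -0.2 to 0.031 for Rfc4, -0.09 to 0.009 for Rfc5, -0.128 to 0.044 for Chtf8, -0.049 to 0.302 for Rpa2, -0.092 to 0.03 for Rrm1, -0.174 to 0.176 for Tyms, -0.222 to 0.041 for Ung, -0.00062 to 0.202 for Uhrf1, -0.027 to 0.193 for Nasp and -0.165 to 0.175 for Rad51ap1.

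Replicate numbers only name the samples, so the title number was the block that could be fitted. The cause of these changes was not tested. With 3 libraries a group and a median standard error of 0.125, differences of the size seen in most of the 49 genes were not detectable. SPF-539 holds 1 library of each group, and a lone library was assumed to vary like the others.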
